A study of Rattus norvegicus with 28 samples.

Results

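Protease genes of the muscle matrix and cell surface were followed in rat tibialis anterior muscle: Adamts4, Adamts7, Adamts10, Adamts12, Adamts15, Adam15, Adam19, Adam23, Mmp2 and Htra3. They are 10 of the 32883 genes counted, and were chosen by name, through the Ensembl identifier that the study's supplementary gene list pairs with each symbol. RNA-Seq had been performed on both legs of 14 male Wistar rats aged 8 weeks, in 2 arms of 7 rats, and muscles were collected 10 days after in vivo electrotransfer and an overnight fast. In the VDR-OE arm (rats 416 to 422) the right leg received a plasmid with the mouse vitamin D receptor and the left leg the empty plasmid. In the VDR-KD arm (rats 423 to 429) the right leg received an shRNA against Vdr and the left leg a scramble shRNA. Electrotransfer drives an injected construct into muscle fibres with electric pulses, so the legs of all 4 groups were injected and pulsed, and none of the muscles analysed was left untouched. The labels name the arms knock-in and knock-out, while the protocol gives an shRNA for the second, and the protocol and the methods name different backbones for the VDR plasmid (pCAGGS and pCMV6). Both backbones carry a promoter that is active in most cell types.

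The matrix around muscle fibres is built largely by fibroblasts and is remodelled by secreted and membrane-bound proteases. ADAMTS proteases are secreted zinc metalloproteases that bind the matrix and cut proteoglycans and other matrix proteins. ADAM proteins sit in the cell membrane, where many of them shed the outer part of growth factors and receptors, although Adam23 lacks the residues needed for catalysis and acts in cell adhesion. Mmp2, gelatinase A, cuts denatured collagen and basement membrane collagen after activation at the cell surface by Mmp14 together with Timp2. Htra3 is a secreted serine protease related to Htra1. The vitamin D receptor binds DNA with the retinoid X receptor, classically at direct repeats of a hexamer (a response element) with 3 bases between the copies.

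To show what lies next to the start of these genes, the 250 bases before the start of Adam15 and of Htra3 are given from RefSeq (build GRCr8, which is not the build of the counts), 5′ to 3′ on the strand of the gene. Adam15 was the only member whose promoter held 1 of the hexamers of the vitamin D response element, which is in capitals, and Htra3, with no such hexamer, had the smallest adjusted p of the members in the VDR-OE arm. The Adam15 sequence lies at chr2:177062850-177063099 on the minus strand and the Htra3 sequence at chr14:79293291-79293540 on the plus strand.
Adam15: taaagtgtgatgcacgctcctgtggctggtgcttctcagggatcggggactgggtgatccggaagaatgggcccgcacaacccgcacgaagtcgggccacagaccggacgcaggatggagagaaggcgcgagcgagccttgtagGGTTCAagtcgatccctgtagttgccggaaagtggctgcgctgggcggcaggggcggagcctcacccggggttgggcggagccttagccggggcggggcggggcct
Htra3: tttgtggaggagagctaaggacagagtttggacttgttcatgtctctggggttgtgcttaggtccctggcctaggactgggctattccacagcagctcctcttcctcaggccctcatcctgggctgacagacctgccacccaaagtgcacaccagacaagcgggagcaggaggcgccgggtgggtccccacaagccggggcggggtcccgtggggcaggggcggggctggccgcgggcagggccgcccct
A promoter from 250 bases before to 50 after the start was given for 7 members, all but Adamts15, Adam23 and Mmp2. The hexamers searched were AGGTCA and GGTTCA on both strands, and 1 of the 7 promoters held one, GGTTCA at -106 to -101 of Adam15. Of all 33469 promoters of the same length, 25.8% held at least 1 of these hexamers. A direct repeat of these hexamers with 3 bases between was found in none of the 7 and in 0.0478% of all promoters. A match is a description of the letters in this window and says nothing of binding.

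Sequencing gave between 36684220 and 46312167 counts per muscle, and each of the 28 was counted as a sample of its own, since any pair of muscles of a group differed by more than sampling noise (the lowest chi-square statistic was 30.2 times its degrees of freedom). Levels are normalised read counts scaled to library size (CPM), computed over all 28 muscles, and the lowest count of any member in any muscle was 53, of Adam23. Vdr, the targeted gene, ran against some labels. It was counted at 1.91 to 6.73 CPM in VDR-OE control muscles and at 201 to 5938 CPM in 6 of the muscles labelled VDR-OE, but the muscle of rat 419 labelled VDR-OE had 5.45 CPM against 5.75 CPM in its control leg. In the VDR-KD arm Vdr was lower in the treated leg of 4 of 7 rats, with a log2 fold change of -0.26 (95% CI -1.18 to 0.66, adjusted p = 0.839 in edgeR's quasi-likelihood test), so a knock-down was not detectable in these counts and the groups are named only as labelled. None of 12 muscle fibre markers, such as Acta1 and Ckm, has a symbol in the gene list used for names, so the tissue label could not be checked by its markers. Calls of the members in the VDR-OE arm are given with and without rat 419. The values of other named genes and the correlations include that rat.

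All 10 members are named because that gene list holds the 1998 genes with the smallest p-values of the VDR-OE contrast, as the study fitted it. The differences between VDR-OE and control legs are thus a description, which the choice of names favours, and the VDR-KD arm is the comparison that this choice did not use. All 10 members passed the filter on low counts in every fit.

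In the VDR-OE arm every member had a higher fitted level in the muscles labelled VDR-OE than in the control legs, by 0.45 (Adamts10) to 0.80 (Adam23) on the log2 scale. After adjustment, 7 of the 10 were called, that is passed 0.05, in edgeR's quasi-likelihood test with the rat as a block: Adamts10, Adamts12, Adamts15, Adam15, Adam19, Mmp2 and Htra3. Of all genes tested 7.14% were called, 4.08% higher and 3.06% lower, and of the genes with a symbol 50.1% were called in either direction. The likelihood ratio test and DESeq2 each called all 10 members, beside 15.6% and 19% of all genes. In simulated data 16.9% of the calls of the likelihood ratio test in this arm were false, and the share for DESeq2 is not given here. At an unadjusted p of 0.05 all 10 passed, as did 31.4% of all genes. The median log2 fold change was 0.65 over the 10 members, 0.48 over the genes with a symbol and -0.003 over all genes. In bulk muscle, more cells of a type and more RNA per cell cannot be told apart.

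Among the ADAMTS proteases, Adamts4 and Adamts15 both cut versican, a large matrix proteoglycan. Adamts15 was counted at 5.72 to 10.02 CPM (median 6.58) in VDR-OE control muscles and at 6.74 to 25.2 CPM (median 11.6) in VDR-OE muscles. The groups overlapped, but the VDR-OE leg was higher in all 7 rats, and the fitted log2 fold change was 0.76 (SE 0.15, adjusted p = 0.0291). Adamts4 went from 3.83 to 7.44 CPM (median 5.66) in control legs to 5.39 to 10.3 CPM (median 8.09) in VDR-OE legs, with a log2 fold change of 0.51 (SE 0.14, adjusted p = 0.053), and was lower in the VDR-OE leg of rat 416 only.

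Adamts7 and Adamts12 are close relatives that cut cartilage oligomeric matrix protein. Adamts12 was counted at 12.0 to 28.03 CPM (median 14.2) in control legs and at 14.7 to 45.2 CPM (median 22.7) in VDR-OE legs, a log2 fold change of 0.60 (SE 0.15, adjusted p = 0.0445). In rat 417 its legs were nearly level, with 22.2 and 22.6 CPM. Adamts7 ranged from 2.93 to 8.2 CPM (median 4.61) and from 4.17 to 17.5 CPM (median 7.59), with a log2 fold change of 0.66 (SE 0.18, adjusted p = 0.0602). Adamts10, which binds fibrillin microfibrils, had the smallest spread of within-rat ratios, 0.44 ± 0.17 on the log2 scale (SD, n = 7). Its level was 14.98 to 26.1 CPM (median 19.3) in control legs and 22.4 to 41.8 CPM (median 24.4) in VDR-OE legs, and it rose by 0.45 on the log2 scale (SE 0.07, adjusted p = 0.0189).

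Of the ADAM proteins, Adam15 carries an integrin-binding disintegrin domain and Adam19 is known as a sheddase of neuregulins. Adam15 was counted at 23.7 to 38.0 CPM (median 33.2) in control legs and at 34.6 to 50.4 CPM (median 45.8) in VDR-OE legs, higher in all 7 rats (log2 fold change 0.46, SE 0.07, adjusted p = 0.02). Adam19 ranged from 32.4 to 69.1 CPM (median 46.2) and from 51.2 to 119 CPM (median 73.9), a log2 fold change of 0.68 (SE 0.16, adjusted p = 0.0393). It fell from 69.1 to 53.2 CPM in rat 416, where the control leg was the highest of its group. Adam23, the member without a catalytic site, had few counts, at 1.45 to 3.05 CPM (median 2.39) in control legs and 2.08 to 5.61 CPM (median 4.16) in VDR-OE legs. Its log2 fold change of 0.80 was the largest of the 10, and so was its SE of 0.21, and it did not pass (adjusted p = 0.051).

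Mmp2 was counted at 51.2 to 123 CPM (median 67.6) in control legs and at 60.7 to 250.5 CPM (median 117.8) in VDR-OE legs. Its log2 fold change was 0.77 (95% CI 0.48 to 1.06, adjusted p = 0.0212), and within rats the ratio was 0.76 ± 0.37 on the log2 scale (SD, n = 7). Htra3 ranged from 24.97 to 54.2 CPM (median 28.9) in control legs and from 34.7 to 86.3 CPM (median 44.96) in VDR-OE legs, a log2 fold change of 0.64 (95% CI 0.45 to 0.83, adjusted p = 0.0163). Both rose in all 7 rats, and rat 419, whose Vdr did not rise, held the highest muscle of the VDR-OE and of the VDR-OE control group for both genes.

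**Figure D1:**
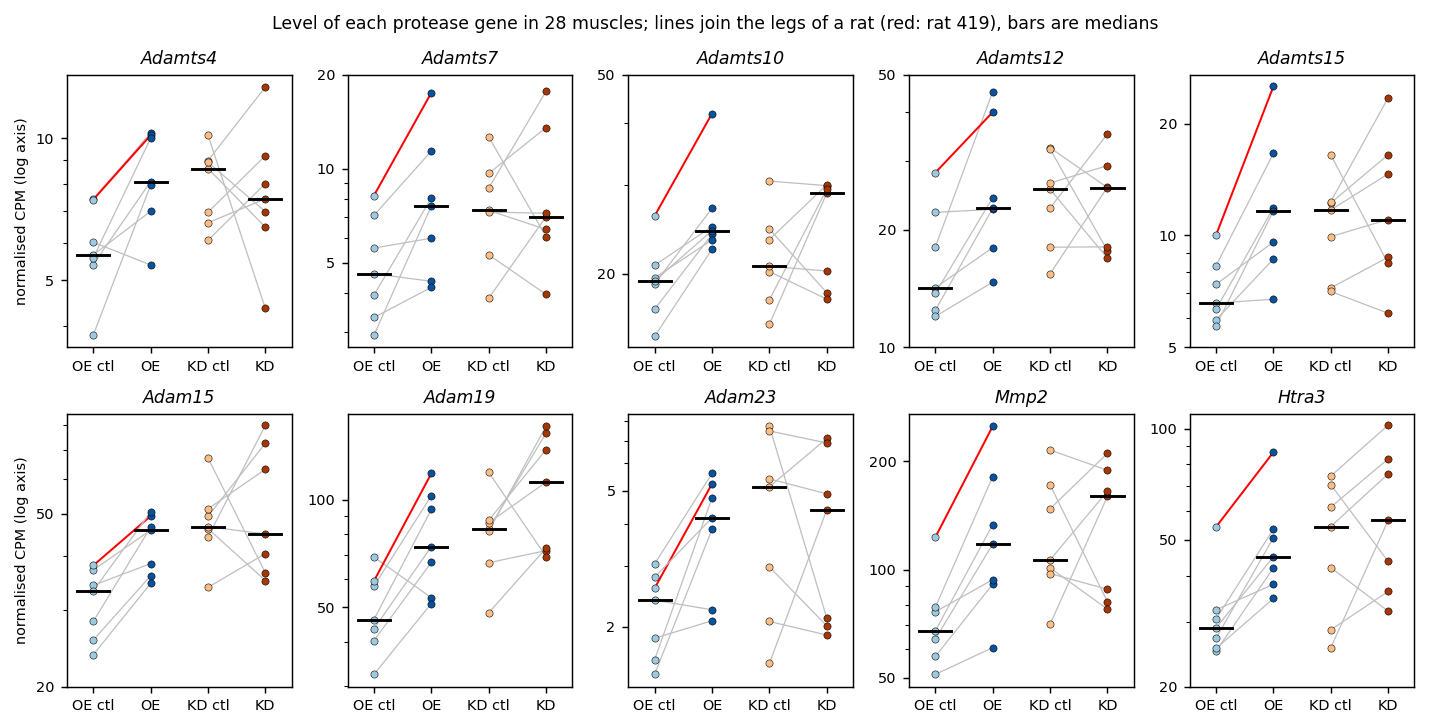
Normalised CPM of the 10 genes (y axis, log scale) in the muscles labelled VDR-OE control (OE ctl), VDR-OE (OE), VDR-KD control (KD ctl) and VDR-KD (KD), 7 muscles each. Points are muscles, thin lines join the legs of a rat, the red line is rat 419 and black bars are medians. For Mmp2 the medians were 67.6, 118, 106 and 160 CPM, and for all 10 genes the lowest median was that of the VDR-OE control muscles.

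Gene by gene within rats, 66 of 70 ratios in the VDR-OE arm were above 0. The 4 below 0 were those of Adamts4, Adamts7, Adam19 and Adam23, and all 4 came from rat 416. There the median of the 10 ratios was 0.10, against 0.36 to 0.89 in the other rats. Of the genes with a symbol, 41.41% were higher in the VDR-OE leg of rat 416, and 61.82% to 63.49% in the other rats. Of all genes, 46.96% to 52.67% were higher in each of the 7 rats. Adamts10, Adamts12, Adamts15, Adam15, Mmp2 and Htra3 were higher in all 7 rats, 6 of 10 members beside 4.95% of all genes. The choice of names by this contrast favours such a count, and the share among genes with a symbol was not computed. For none of the 10 did the 2 groups of legs separate without overlap, as they did for 1.75% of all genes.

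These calls rested on which rats were fitted. Without rat 416 all 10 members were called, along with 4768 of the 14363 genes tested. Without rat 417 the calls were Mmp2, Htra3 and Adamts10, beside 149 of 14424 genes, and without rat 422 there were 5, beside 416 of 14397 genes. Without rat 418, 420 or 421 no member was called by the quasi-likelihood test, and all 10 kept an unadjusted p under 0.05. The calls over all genes were as few there, with 1, 4 and 0 genes. Without rat 419, where 209 of 14395 genes were called, Htra3 (log2 fold change 0.64, adjusted p = 0.0439), Adamts10 (0.41, adjusted p = 0.0457) and Adam15 (0.48, adjusted p = 0.0457) were called and the other 7 had adjusted p-values up to 0.122, with all 10 fold changes still above 0. In rat 419 itself, with no measured rise of Vdr, all 10 members were higher in the leg labelled VDR-OE, by 0.38 (Adam15) to 1.33 (Adamts15) on the log2 scale. In that leg 52.67% of all genes and 62.34% of the genes with a symbol were higher. Without the block for the rat, only Adam15 was called among the members (adjusted p = 0.0428), beside 887 of 14526 genes.

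For the VDR-KD arm no member was called and none had an unadjusted p under 0.05. Over all genes 0% were called by the quasi-likelihood test, by the likelihood ratio test and by DESeq2, with 395 of 14652 genes (2.7%) at an unadjusted p under 0.05 in the first and 401 in the second. Fitted log2 fold changes of the members ran from -0.11 (Adam23) to 0.42 (Adam19), and 7 of 10 were above 0. Their median was 0.10, beside 0.10 for genes with a symbol and 0.01 for all genes. The power of this arm was lower: in simulated data a change of 1 on the log2 scale was recovered for 37% of 200 genes, against 81.5% in the VDR-OE arm. That change is larger than the fitted one of any member in either arm, and recovery of smaller changes was not simulated.

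Adam19 was the member with the smallest p in this arm. It was counted at 48.2 to 119 CPM (median 82.8) in VDR-KD control muscles and at 69.3 to 161 CPM (median 112) in VDR-KD muscles. It was higher in 6 of 7 rats, and the interval of its log2 fold change ran from -0.06 to 0.90 (adjusted p = 0.803). Htra3 had a log2 fold change of 0.26 (95% CI -0.21 to 0.73), with 25.5 to 74.4 CPM (median 54.3) in control legs and 32.1 to 102 CPM (median 56.4) in VDR-KD legs. Mmp2 ranged from 70.5 to 215 CPM (median 106) and from 77.7 to 211 CPM (median 160), with a log2 fold change of 0.08 (95% CI -0.50 to 0.66). The groups overlapped for all 3 genes.

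The remaining members also had intervals on both sides of 0. Adam23 gave -0.11 on the log2 scale (95% CI -0.89 to 0.66), Adamts4 -0.06 (-0.57 to 0.45) and Adamts12 -0.03 (-0.50 to 0.43). Adamts10 gave 0.19, Adamts15 0.15, Adamts7 0.11 and Adam15 0.10. The fold changes of Adamts7, Adamts10, Adam15, Adam19 and Htra3 in the VDR-OE arm lie within their VDR-KD intervals and those of the other 5 members lie above them, although the difference between the arms did not pass its own test.

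The rats of the VDR-KD arm moved in different directions. Of 70 ratios 39 were above 0, for no member were the 2 groups of legs free of overlap (0.0132% of all genes), and the median over the 10 members ran from -0.87 in rat 425 to 0.80 in rat 423. In rat 425 all 10 members were lower in the leg labelled VDR-KD, from -1.86 for Adam23 to -0.41 for Adamts4. In rat 426, 9 members were higher and only Adam23 was lower, at -0.12. Over all genes, the share higher in the treated leg ran from 49.18% to 51.0% between the rats of this arm. Over the genes with a symbol it ran from 36.2% in rat 425 to 68.07% in rat 424. Rat 423 held ratios far on both sides of 0, with Adamts4 at -1.22 and Adam23 at 1.48. Vdr itself was lower in the treated leg of rat 425 (8.12 and 2.93 CPM) and higher in that of rats 423 and 426 (4.38 and 6.54 CPM, and 1.39 and 4.27 CPM). In other rats Vdr and the members went apart: in rat 424 Vdr had its lowest log2 ratio of the arm, -1.66, with 7 of 10 members higher, in rat 428 it had -0.69 with 8 higher, and in rat 427 it had 0.46 with 7 lower. In rat 429 Vdr had -0.52 with 6 members lower. Without rat 425, all 10 fold changes were above 0, and 2 members had an unadjusted p under 0.05 with none called, beside 1458 of 14495 genes at that level. The SD of the ratios was larger in the VDR-KD than in the VDR-OE arm for 10 of 10 members, as it was for 81.15% of all genes, with a median over the members of 0.61 against 0.41.

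**Figure D2:**
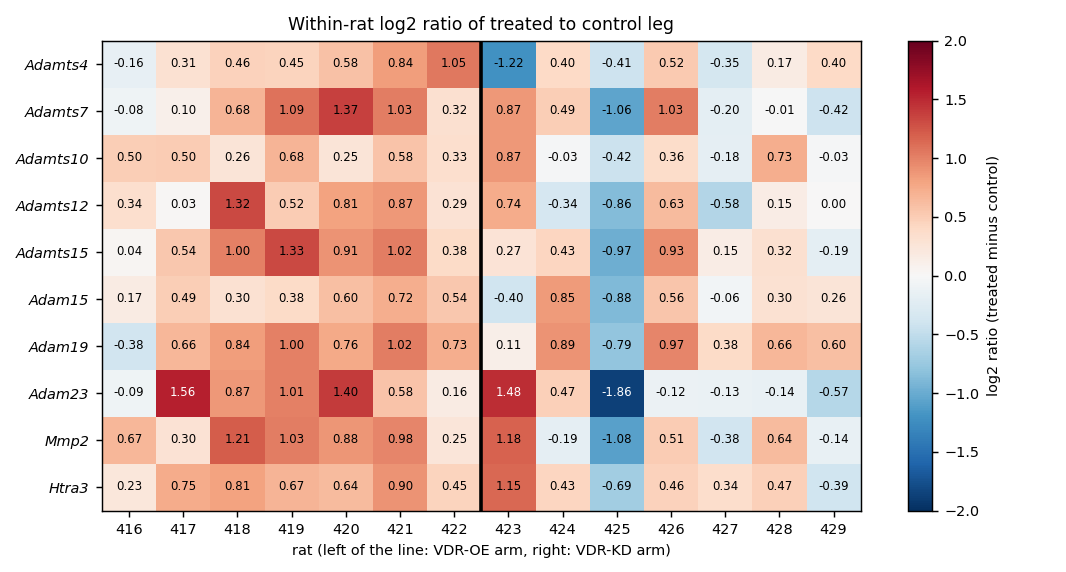
Log2 ratio of the treated to the control leg for each gene (rows) in each rat (columns), from normalised CPM with a prior count of 0.5, with the VDR-OE arm left of the black line and the VDR-KD arm right of it. Red cells are ratios above 0 and blue cells ratios below 0. In the VDR-OE arm 66 of 70 cells are above 0, and in the VDR-KD arm 39 of 70, with rat 425 below 0 in all 10 rows.

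Whether the arms differed was tested as the VDR-OE effect minus the VDR-KD effect in a fit of all 28 muscles. All 10 differences were above 0, from 0.26 (Adam19, 95% CI -0.32 to 0.84) to 0.91 (Adam23, 95% CI 0.02 to 1.81), and none passed after adjustment (lowest adjusted p = 0.623, Adamts12, edgeR's quasi-likelihood test). Unadjusted, Adamts4, Adamts12, Adamts15, Adam23 and Mmp2 had a p under 0.05, 5 of 10 members beside 3.37% of all genes higher at that level. Of the genes with a symbol, which were chosen as the members were, 629 of 1920 passed that level in either direction. Over all genes 0% were called by this test, with 1099 at an unadjusted p under 0.05, (7.27%), while the likelihood ratio test called 18 genes (0.119%) and DESeq2 called 44 (0.291%), with no member among them. Leaving out 1 rat took the 5 unadjusted calls to between 0 and 6. This contrast holds the VDR-OE legs that gave the genes their names and is not independent of that choice.

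The control legs of the arms were also set side by side. They come from different rats and received different constructs, an empty plasmid and a scramble shRNA, so that arm and construct cannot be told apart. For all 10 members the VDR-OE control muscles had the lowest median of the 4 groups. The highest was in the VDR-KD muscles for Adamts10, Adamts12, Adam19, Mmp2 and Htra3, in the VDR-KD control muscles for Adamts4, Adamts15, Adam15 and Adam23, and in the VDR-OE muscles for Adamts7. Levels in VDR-OE control legs were lower than in VDR-KD control legs by a fitted log2 difference of -0.16 (Adamts10) to -1.05 (Adam23), and of -0.82 for Mmp2 (95% CI -1.34 to -0.29) and -0.62 for Adam15 (95% CI -0.93 to -0.32).

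After adjustment no member passed in this comparison (lowest adjusted p = 0.0794, Adam15, edgeR's quasi-likelihood test), and 0.0277% of all genes did. The likelihood ratio test called 3 members and DESeq2 called 5, beside 3.05% and 7.11% of all genes. Unadjusted, 9 of 10 members, all but Adamts10, were lower in the VDR-OE control legs at p under 0.05. In either direction 23.3% of all genes passed this level, and the VDR-OE control legs were lower for 12.7% of all genes and 43.8% of the genes with a symbol. The same VDR-OE control legs enter the contrast that chose the names, so the low levels there were favoured by that choice. For no member were the 2 groups of control legs free of overlap, as they were for 0.589% of all genes. Without rat 429 in this comparison, 3 members and 788 genes were called.

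**Figure D3:**
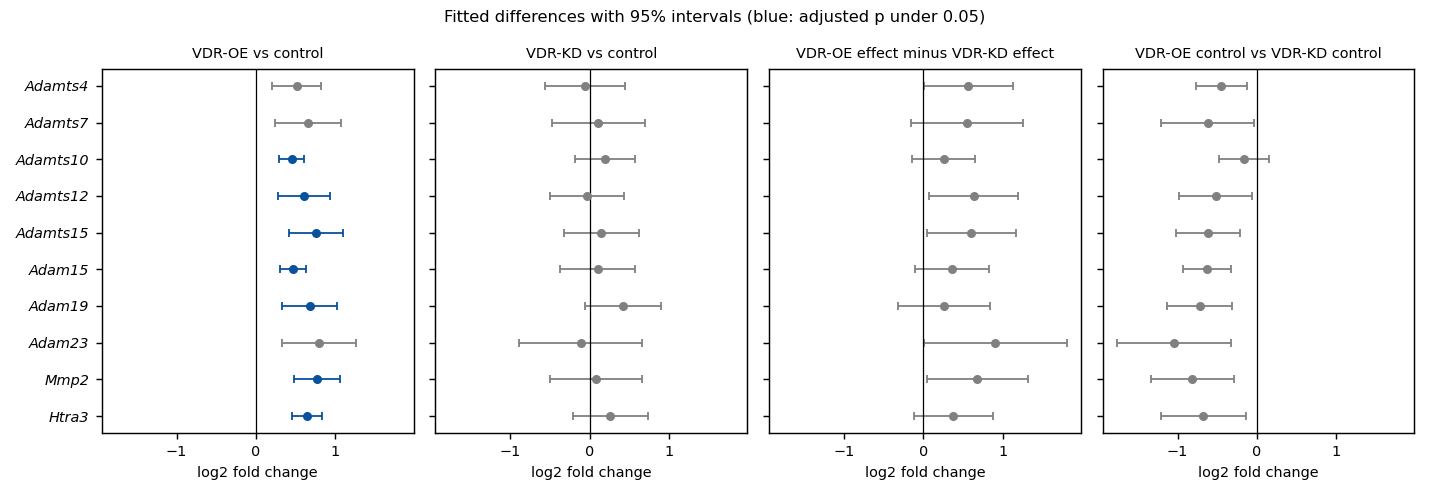
Fitted log2 fold change (x axis) of the 10 genes in 4 comparisons, with bars for the 95% confidence interval and blue where the adjusted p was under 0.05 in edgeR's quasi-likelihood test. The VDR-OE panel holds 7 blue genes, the other 3 panels hold none, and the control legs of the arms differ by -0.16 to -1.05.

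Over the 28 muscles, with the mean of each group removed, the log2 levels of the members moved together. The 45 pairs had Pearson correlations of 0.19 to 0.90 with a median of 0.69 (median Spearman rho 0.70), while the median over all pairs of genes with a symbol was 0.11. These points share a library and its depth, and the correlation is a description over 28 muscles. Mmp2 and Adamts12 were the most alike pair (0.90), followed by Adamts7 and Adamts15 (also 0.90). Adamts4 stood furthest from the rest, with a median of 0.43 to the other members and 0.19 to Adamts10, and Mmp2 was closest to the rest, with a median of 0.79.

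**Figure D4:**
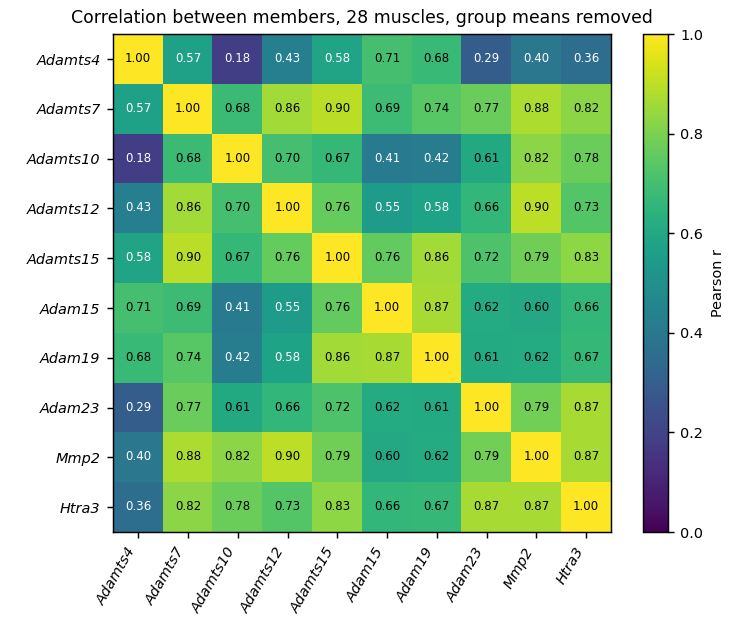
Pearson correlation of log2 CPM between the 10 genes over 28 muscles, after removal of the mean of each group. The row of Adamts4 holds the lowest values, and Mmp2 and Adamts12 the highest, at 0.90.

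Among 1919 genes with a symbol, the genes most like Mmp2 were Adamts2, a procollagen peptidase (r = 0.96), Mmp14, the membrane protease that activates pro-Mmp2 (0.95), and Antxr1, a collagen-binding receptor (0.95). Adamts2 was also the gene most like Htra3 (0.92). For Adamts12 it was Mfap2, a microfibril protein (0.90), for Adamts7 the actin-binding Dbn1 (0.91), for Adamts15 Spsb1 (0.92), for Adam15 the serine carboxypeptidase Scpep1 (0.93) and for Adam19 Vat1 (0.91). The gene most like Adamts4 was Il1r1, the interleukin 1 receptor (0.83), that most like Adamts10 was Arfip2 (0.88), and that most like Adam23 was RGD1311744 (0.90).

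Other genes could be followed only where they had a symbol, which the same selection limits to genes with small p-values in the VDR-OE arm, of which 50.1% were called, 534 of 1874 higher and 404 lower. The counts of calls in the lists of proteases, inhibitors, matrix proteins and cell type markers were favoured by this choice and are a description, and in the VDR-KD arm no gene of any kind was called. Of 14 other ADAMTS proteases 2 had one, and Adamts2 was called higher in VDR-OE (log2 fold change 0.69, adjusted p = 0.02, quasi-likelihood test) while Adamts14 had 0.77 (adjusted p = 0.0686). None of 9 other ADAM proteins had one, and of 6 ADAMTS-like proteins only Adamtsl1 did (0.57, adjusted p = 0.0505). Of 20 other MMPs, 3 were named. Mmp14 was counted at 37.9 ± 9.51 CPM (SD, n = 7) in the VDR-OE control group and 63.3 ± 27.3 CPM (SD, n = 7) in the treated group, and was called higher (by 0.67 on the log2 scale, adjusted p = 0.0236), as was Mmp19 (1.07, adjusted p = 0.0276), and Mmp16 passed the filter only in the VDR-KD arm (0.18, adjusted p = 0.844).

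Of 18 HtrA and other matrix proteases, 9 had a symbol and 4 of the 9 were called higher in VDR-OE. Of the genes with a symbol, 534 of 1874 were called higher, and whether the shares differ was not tested. The 4 were Htra1 (log2 fold change 0.60, adjusted p = 0.0321), the procollagen C-proteinase Bmp1 (0.52, adjusted p = 0.0185), the collagen-degrading cathepsin Ctsk (0.63, adjusted p = 0.02) and the urokinase Plau (0.50, adjusted p = 0.0393). None of these was called in the VDR-KD arm. The genes with the smallest p-values there were Plau (log2 fold change 0.26), Htra1 (0.40), Plat (0.21) and Ctsb (0.46). Each of them had an adjusted p of 0.803.

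Protease inhibitors were read in the same way. Of 17 listed 5 had a symbol, and 3 were called higher in VDR-OE, beside 534 of 1874 genes with a symbol. Among the 3 was Timp2, which inhibits Mmp2 and also takes part in its activation. Timp2 was counted at 79.2 ± 20.9 CPM (SD, n = 7) in control legs against 108.8 ± 22.96 CPM (SD, n = 7) in treated legs (0.48 on the log2 scale, adjusted p = 0.0237). The serpins Serpinf1 (0.47, adjusted p = 0.0365) and Serping1 (0.86, adjusted p = 0.0479) were the others. Wfikkn2 was called lower (-0.72, adjusted p = 0.033), and is known as a binder of myostatin as well as for its protease inhibitor domains. Timp1 had 1.07 (adjusted p = 0.0892), while Timp3, Timp4 and Reck had no symbol in the list and are not analysed here. None of the 5 was called in the VDR-KD arm, where Timp2 had a log2 fold change of 0.12.

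The matrix proteins that these proteases cut were represented by 11 of 21 listed genes. None was called in VDR-KD, where 0% of all genes were. In VDR-OE 10 were called higher, beside 534 of 1874 genes with a symbol and 4.08% of all genes, and whether the shares differ was not tested. The log2 fold change was 0.93 for fibronectin, Fn1 (adjusted p = 0.02), 0.84 for Col1a1 (adjusted p = 0.0224), 0.64 for the proteoglycan Dcn (adjusted p = 0.0269) and 0.84 for Col3a1 (adjusted p = 0.0271). The exception was versican, Vcan, the substrate of Adamts4 and Adamts15, at 1.15 (adjusted p = 0.0557). Elastin, Eln, had a log2 fold change of -0.56 in the VDR-KD arm (unadjusted p = 0.035, adjusted p = 0.803) and of 0.61 in the VDR-OE arm (adjusted p = 0.0358). Of 21 shed substrates and partners, the neuregulin Nrg2 (0.83, adjusted p = 0.0583) and Csf1 (0.65, adjusted p = 0.0582) had a symbol, and neither was called.

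Markers of other cell types were set beside the proteases, with names from the same selection. Of 12 fibroblast markers 9 had a symbol, 8 of which were called higher in VDR-OE, beside 534 of 1874 genes with a symbol. Whether the shares differ was not tested. Among the 8 called higher were Pdgfra, at 0.99 on the log2 scale (adjusted p = 0.022), and Dpt, at 0.70 (adjusted p = 0.0173). The summed level of the 9 ran from 1623 to 5454 CPM (median 2966) in VDR-OE control, from 2350.0 to 8875 CPM (median 5617) in VDR-OE, from 3020.0 to 9057 CPM (median 5461) in VDR-KD control and from 2768 to 9173 CPM (median 4978) in VDR-KD muscles. Col3a1 (1755 CPM) and Col1a1 (938 CPM) had the highest means of the 9 in VDR-OE control legs, and Dcn was next at 186 CPM. The sum is thus mostly that of Col3a1 and Col1a1. The markers Dcn, Lum, Col1a1, Col3a1 and Fbn1 are also in the list of matrix substrates.

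Of 12 macrophage markers 7 had a symbol and 4 of the 7 were called higher in VDR-OE. Of the genes with a symbol, 534 of 1874 were called higher, and whether the shares differ was not tested. The 4 were Mrc1 (log2 fold change 1.43, adjusted p = 0.0282), Cd14 (1.34, adjusted p = 0.0364), Csf1r (1.14, adjusted p = 0.0408) and Cd163 (1.42, adjusted p = 0.0428). Lyz2, C1qb and C1qc were not called (adjusted p = 0.0564, 0.0758 and 0.075). The sum of all 7 ran from 183 to 717 CPM (median 407) in VDR-OE control, from 485 to 1512 CPM (median 1090.0) in VDR-OE, from 474 to 1833 CPM (median 879) in VDR-KD control and from 407 to 2531 CPM (median 1814) in VDR-KD muscles. Lyz2 (195.8 CPM), C1qc (87.0 CPM) and C1qb (69.5 CPM) had the highest means of the 7 in VDR-OE control legs. Of 8 mural cell markers Pdgfrb (0.35, adjusted p = 0.0382) and Notch3 (0.38, adjusted p = 0.0431) had a symbol and were called, and their sum ran from 90.5 to 199 CPM over all muscles. No matched marker was at 0 in any muscle, and none of the 8 endothelial, 8 satellite cell or 6 Schwann cell markers had a symbol. None of the matched markers was called in the VDR-KD arm.

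Between the control legs, all 9 fibroblast and all 7 macrophage markers were lower in the VDR-OE arm at an unadjusted p under 0.05, with median log2 differences of -0.74 and -1.18, and the members had a median of -0.62. At that level 12.7% of all genes and 43.8% of the genes with a symbol were lower. None of these markers passed after adjustment, and the VDR-OE control legs also enter the contrast that chose the names. Within rats, the summed fibroblast markers were higher in the VDR-OE leg of all 7 rats, by 0.41 to 1.39 on the log2 scale. This sum mostly follows Col1a1 and Col3a1. In the VDR-KD arm these were higher in 4 and 3 of 7 rats, Pdgfra and Dpt in 6 and the other fibroblast markers in 3 to 5. In rat 425, where all 10 proteases were lower, the log2 ratio of the fibroblast markers was -1.64 and that of the macrophage markers -1.50, and in rat 423 these were 0.72 and -1.11. In rats 421 and 422 the macrophage markers had log2 ratios of 2.81 and 2.70, while the members had medians of 0.89 and 0.36. The part of these cell types in the protease levels was not tested.

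**Figure D5:**
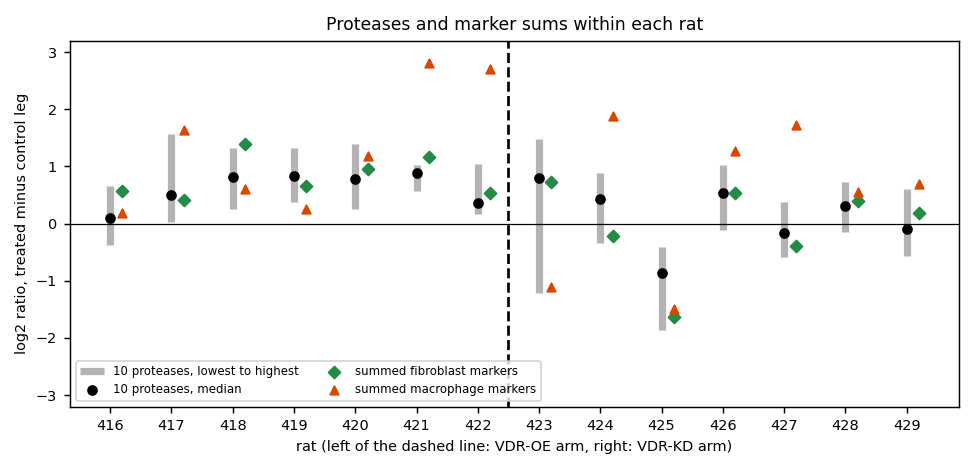
Log2 ratio of the treated to the control leg in each rat (x axis) for the 10 proteases (grey bar from lowest to highest, black dot at the median), the summed fibroblast markers (green diamonds) and the summed macrophage markers (orange triangles). Summed fibroblast markers, mostly Col1a1 and Col3a1, are above 0 in all 7 rats of the VDR-OE arm. Rat 425 of the VDR-KD arm has a protease median of -0.87 beside -1.64 and -1.50.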

How the data were processed

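RNA was sequenced from the tibialis anterior muscle of both legs of 14 rats (7 per arm) as 75 bp paired-end reads, without unique molecular identifiers being described. Per the labels, the authors deposited the raw count of each gene in each muscle, not normalised, on rat genome version 6.0 with Ensembl release 89, and the methods name trimmomatic, FastQC and Rsubread for trimming, quality control, alignment and counting. Whether counting used the strand is not given in the sources used here, so reads of overlapping or antisense genes cannot be told apart.

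Samples were grouped by the VDR status label and paired by the animal label. A gene was kept if its CPM was above that of a count of 10 in the median library (0.239 in the VDR-OE arm, 0.251 in the VDR-KD arm and 0.244 over all muscles) in at least 7 of the muscles fitted, which left 14526 genes in the VDR-OE arm, 14652 in the VDR-KD arm, 15112 in the fit of all 28 and 14458 in that of the control legs. Each arm was fitted on its own in edgeR 4.0.16 (R 4.3.3) with the animal as a block, TMM normalisation (trimmed mean of M-values), the quasi-likelihood test and Benjamini-Hochberg adjustment over all genes kept. Every adjusted p given is from this test. The methods of the study point to edgeR's glmFit, and its likelihood ratio test was an alternative here, because it gave more false calls in simulated data. CPM were normalised over all 28 muscles, and log2 ratios within rats used a prior count of 0.5. P-values in the control leg comparison rest on the spread of levels between rats. Those between legs, with the animal as a block, rest on the spread of the within-rat differences.

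The scripts were tested on simulated counts in which the log2 level of 200 genes was shifted by 1. The quasi-likelihood test recovered 81.5% in the VDR-OE arm (14296 genes) with 3.55% of calls false, 37% in the VDR-KD arm (14457 genes) with 3.9% false, 40.5% for the difference between the arms (14950 genes) and 69% between the control legs (14331 genes). The likelihood ratio test recovered 88.5% in the VDR-OE arm and 66% in the VDR-KD arm, with 16.9% and 23.3% of calls false. Shares for DESeq2 are not given here. The bound set for the share recovered was loosened after the VDR-KD arm fell under it.

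The legs of a rat pair by the animal label. Deviations from the group mean were correlated over genes: in the VDR-OE arm the mean r was 0.243 for legs of the same rat and -0.041 for legs of different rats, and it was -0.105 and 0.018 in the VDR-KD arm.

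Symbols came only from the study's supplementary gene list (1998 identifiers, of which 1986 symbols were used and 4 paired with more than 1 identifier were left out). That list also holds the authors' own fold changes and p-values, which were not used. The members and gene lists were chosen with earlier results of these data known. All members, Vdr, up to 4 genes per list and arm with the smallest p, Timp1 to Timp4, Mmp14, Reck, and the genes most correlated with each member (3 for Mmp2, 1 for the others) are named, and further genes of a list were named after their values were seen. Alternatives were the likelihood ratio test, DESeq2 1.42.0 (adjusted p-values given as NA left out), another normalisation, other filters, no block, a fit of all 28 muscles, a prior count of 2 and leaving out each rat. Protein sequences were not used here.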

Additional observations from a re-analysis of the deposited data

Results flagged for a closer look

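Of 44 sets of 7 muscles checked for a sample far from the others, 4 held one, and all 4 were muscles of rat 419, whose Vdr did not rise in the leg labelled VDR-OE. Chance flags about 1 in 20 independent sets, and these sets share muscles and hold genes that move together, so the 4 are not independent. Adamts10 had 41.8 CPM in the VDR-OE muscle of that rat, where the next muscle of the group had 27.0 CPM. Mmp2 had 123 CPM in its control muscle, where the next had 78.6 CPM. Htra3 stood apart in both legs, with 54.2 CPM in the control leg (next 32.3 CPM) and 86.3 CPM in the VDR-OE leg (next 53.4 CPM). Within that rat the log2 ratios of these 3 genes were 0.68, 1.03 and 0.67.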

How the results depend on the processing

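In the VDR-OE arm the fold changes of all 10 members stayed above 0 under every alternative, but the number called did not hold. Of the members, 7 were called in the fit used, 10 by the likelihood ratio test and by DESeq2, 1 without the replicate block, 0 in a fit of all 28 muscles and between 0 and 10 when 1 rat was left out. Over all genes the count was 1037, against 2262 by the likelihood ratio test, 2767 by DESeq2, 229 in the fit of all 28 muscles, 887 without the replicate block and 0 to 4768 with 1 rat left out. In the VDR-KD arm 0 genes were called under any of these alternatives, without the replicate block too. For the difference between the arms no member was called under any alternative, and the count over all genes of 0 became 18 by the likelihood ratio test, 44 by DESeq2, 1 with no filter on low counts, 11 without the replicate block and 0 to 1 with 1 rat left out. Between the control legs, where no paired fit exists because they come from different rats, 0 members were called, against 3 by the likelihood ratio test, 5 by DESeq2 and 0 to 3 with 1 muscle left out. Over all genes the 4 calls became 441, 1028, 12 with size-factor normalisation, 7 with no filter, 16 with the filter passed in every muscle, 132 in the fit of all 28 muscles and 0 to 788 with 1 muscle left out. The cause of these shifts was not tested. Log2 fold changes in the VDR-KD arm changed sign only when 1 rat was left out, with ranges of -0.162 to 0.123 for Adamts4, -0.054 to 0.306 for Adamts7, -0.167 to 0.110 for Adamts12, -0.031 to 0.265 for Adam15, -0.371 to 0.166 for Adam23 and -0.104 to 0.279 for Mmp2. Intervals of each arm cover the spread of the within-rat differences of 7 rats only. Those of the difference between the arms and of the control legs rest on 14 rats. The members had at least 53 counts in every muscle, fewest for Adam23, and the effect of depth on their calls was not tested.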
